A study of Oryctolagus cuniculus with 16 samples.

Results

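Total RNA was compared between roughened titanium implant sites and sham drill holes in the rabbit tibia, 10 days after surgery. The SLA Ti sites held an implant of titanium with a sandblasted and acid-etched surface, a finish used clinically because its roughness increases contact with bone. The Sham sites belong to the drilled holes of the same animals and are labelled as sham in place of an implant type, although the tissue label of every site, theirs included, names the contact area of implant and bone. The comparison takes 8 of the 16 libraries of the study, 4 per group, selected by implant type. The other 8 came from sites with a machined implant of titanium (Turned Ti) or copper (Turned Cu), and every rabbit gave 1 library of each of the 4 kinds. Within each of the 4 rabbits the SLA Ti and Sham sites lay in opposite tibiae at the same level, proximal in rabbits 1 and 3 and distal in rabbits 2 and 4. The SLA Ti site was in the left tibia of rabbits 1 and 2 and in the right tibia of rabbits 3 and 4. Replicates carry the number of their rabbit, and each group holds 4 separate animals. The strain, sex and age of the animals are not given in the sources used here. With the implant taken out, a curette was used on the inner surface of the hole, so each library is of what stayed in the bone and mixes bone, marrow, blood and repair tissue. In such bulk samples fewer cells of a type and less RNA per cell cannot be told apart.

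A drilled hole in bone first fills with a blood clot, which neutrophils and then macrophages enter. Fibroblasts and new vessels replace the clot, and osteoblasts then lay down collagen that mineralizes into woven bone, in part over a cartilage stage. Red and white blood cells are made in the marrow next door, where maturing granulocytes are packed with granule proteins. Around an implant these same steps must end in bone that touches the metal, which is called osseointegration.

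Totals were 10249480 to 17457473 estimated read counts per SLA Ti library and 13021257 to 19845846 per Sham library. Ribosomal RNA took much of this, and nuclear protein-coding genes received 1730553 to 3765315 in SLA Ti and 965804 to 3251099 in Sham. Nuclear ribosomal RNA made up 44.8% of the counts of SLA Ti replicate 4 and 65.3% of those of Sham replicate 2, and between 1.82% and 15.2% in the other libraries of both groups. Mitochondrial ribosomal RNA made up 38.5% to 62.0% in SLA Ti and 24.3% to 70.6% in Sham. Levels below are CPM, counts scaled to a common library size. A principal component analysis of the 500 genes of highest variance over the 8 libraries put 58.4% of the variance on its first axis, where SLA Ti replicates 1 to 4 lay at -17.8, 9.67, -41.9 and -16.3, and Sham replicates 1 to 4 at 22.4, 25.4, 1.05 and 17.4. Each SLA Ti library lay below the Sham library of the same rabbit, while SLA Ti replicate 2 lay above Sham replicate 3. Among markers of tissues that a scrape could also pick up, none of the 10 epithelial and keratinocyte genes was tested. Skeletal muscle genes summed to 13.6, 8.49, 21.9 and 8.76 CPM in SLA Ti and 7.45, 9.01, 7.16 and 5.31 CPM in Sham, where 7 of 25 were tested.

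Genes of neutrophils, red cell precursors, inflammatory signals and glucose breakdown stood higher at SLA Ti sites than at Sham sites, and genes of cartilage and bone matrix stood lower, but no gene passed the test over all genes in the fit to 16 libraries. That fit used edgeR's quasi-likelihood test with the rabbit as a block, and its lowest Benjamini-Hochberg adjusted p was 0.0846, shared by 97 genes, so that 0 of 11617 genes (0%) passed at 0.05. At an unadjusted p under 0.05, 1702 genes (14.7%) differed, 1355 of them (11.7%) higher and 347 (2.99%) lower in SLA Ti. The median log2 fold change of all genes tested was -0.01. The result depended on the fit. With only the 8 SLA Ti and Sham libraries and the rabbit as a block, 435 of 10625 genes (4.09%) passed, 411 higher (3.87%) and 24 lower (0.226%), and with those libraries and no block edgeR called 0, with 1377 genes higher and 557 lower at an unadjusted p under 0.05. DESeq2 on all 16 libraries called 475 of 21245 genes (2.24%), 393 higher (1.85%) and 82 lower (0.386%), and limma-voom with quality weights 359 of 11617 (3.09%), 340 higher (2.93%) and 19 lower (0.164%). Without a filter on low counts edgeR called 742 of 21245 genes (3.49%), 660 higher (3.11%) and 82 lower. A set of 183 genes was called by the 8-library fit, DESeq2 and limma-voom alike, 174 higher and 9 lower. In the 8-library fit 127, 209, 518 and 0 genes passed without rabbit 1, 2, 3 and 4, so that its calls ended without rabbit 4. In the fit to 16 libraries 176 genes passed without rabbit 3, and 0 or 1 without any other rabbit or without any single SLA Ti or Sham library. A test result below is that of the fit to 16 libraries unless the 8-library fit is named. The gene lists described below and their members were chosen with earlier results of these data known. The filter on low counts also admits genes low in Sham through libraries where they are high. Counts and medians within lists are therefore no separate support. The authors' deposited table lists 1539 genes at p under 0.05 and at least a 2-fold difference, 1333 of them higher and 206 lower in SLA Ti, and 564 at q under 0.05.

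**Figure D1:**
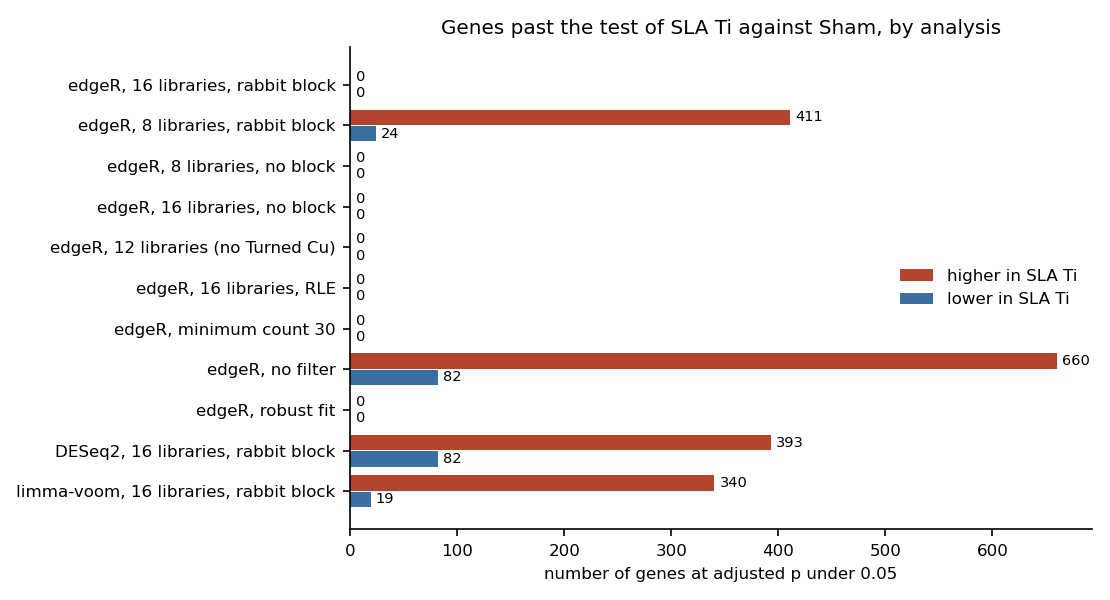
Number of genes at an adjusted p under 0.05 (horizontal axis), higher (red) or lower (blue) in SLA Ti than in Sham, for 11 analyses (rows). The fit to 16 libraries gives 0 and 0, the 8-library fit with the rabbit as a block 411 and 24, and DESeq2 393 and 82.

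The 15 named genes of smallest p on the higher side were each higher in 4 of 4 rabbits. By comparison 1971 of all genes tested (17%) were higher in every rabbit and 1506 (13%) lower. The 15 genes were picked by their p in this same comparison. Their agreement among rabbits or in the 8-library fit is therefore no separate support. ITGAL, the alpha chain of the leukocyte integrin LFA-1, had 50.2, 30.001, 90.8 and 61.0 CPM in the SLA Ti libraries of rabbits 1 to 4, against 14.2, 9.42, 23.8 and 14.6 CPM in the Sham libraries. The lowest SLA Ti library lay above the highest Sham library. Its log2 fold change was 1.88 ± 0.35 (SE, n = 4 libraries per group, edgeR adjusted p = 0.0846), and 1.88 ± 0.23 in the 8-library fit (edgeR adjusted p = 0.0103). ITGB2, the beta chain that pairs with it on leukocytes, had 246, 112, 502 and 216 CPM in SLA Ti, against 45.8, 29.1, 99.4 and 38.7 CPM in Sham. Again the groups did not overlap, and both genes passed the 8-library fit, where ITGB2 rose by 2.31 ± 0.28. Groups that do not overlap, with SLA Ti above, were found for 470 genes (4.05%), and with SLA Ti below for 424 (3.65%). Picking genes by small p favours such groups, so their lack of overlap is no separate support either.

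CLEC4D, a lectin receptor of myeloid cells, had 2.23, 3.62, 19.0 and 5.33 CPM in SLA Ti, against 0.298, 1.21, 1.04 and 0.523 CPM in Sham, and OLR1, a scavenger receptor for oxidized lipoprotein, had 0.614, 0.625, 7.35 and 3.58 CPM in SLA Ti, against 0, 0, 0.245 and 0 CPM in Sham. Neither gene's groups overlapped, and for OLR1 3 Sham libraries had no count at all. BST1, a surface enzyme of myeloid and marrow stromal cells, differed by 2.16 ± 0.42, and PIK3AP1, an adaptor of immune receptor signalling, by 1.70 ± 0.34. TNIP3, an inhibitor of NF-kappa-B signalling, had 19, 12, 10 and 14 counts in SLA Ti and 0, 0, 1 and 2 counts in Sham. CTSE, the aspartic protease cathepsin E of immune and red cell precursors, had 83.7, 26.3, 131 and 57.2 CPM in SLA Ti, against 6.97, 3.77, 32.3 and 8.36 CPM in Sham. Its highest Sham value, in replicate 3, exceeded its lowest SLA Ti value, in replicate 2. GDE1, a phosphodiesterase, differed by 1.74 ± 0.33. All 7 of these genes passed the 8-library fit, with edgeR adjusted p between 0.00814 and 0.0325.

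Red cell precursor genes were higher at SLA Ti sites. Of 19 listed erythroid genes 12 could be tested, the globins not among them. All 12 were higher at an unadjusted p under 0.05, against 11.7% of all genes. A member with few Sham counts passes the filter on low counts only through libraries where it is high, which favours the higher side. With the 8 libraries alone that filter kept 9 of the 12. The median log2 fold change of the 12 was 3.20, and 11 were higher in 4 of 4 rabbits, against 17% of all genes. SLC4A1, the anion exchanger band 3 of the red cell membrane (ENSOCUG00000004499, chromosome 19, 44560251 to 44573628, minus strand, as the gene table states it), had the smallest p of all genes. It had 88.5, 27.9, 6.17 and 134 CPM in the SLA Ti libraries of rabbits 1 to 4, against 4.29, 0.942, 0.49 and 18.7 CPM in the Sham libraries. Each SLA Ti library exceeded the Sham library of its own rabbit, while the groups overlapped because rabbit 3 was low and rabbit 4 high in both. The log2 fold change was 4.02 ± 0.61 (edgeR adjusted p = 0.0846), and the gene rose by 3.87 ± 0.38 in the 8-library fit (edgeR adjusted p = 0.00687).

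AHSP, the chaperone of alpha globin, had 1.80, 0.658, 0 and 1.75 CPM in SLA Ti and 0.0596, 0, 0 and 0.201 CPM in Sham, with no count in rabbit 3 at either site. TSPO2, an erythroid membrane protein, differed by 3.02 ± 0.70, and ERMAP, a protein of erythroblast membranes, by 4.97 ± 0.99. TMCC2 and YPEL4 differed by 3.12 ± 0.63 and 4.72 ± 0.96. The folds of ERMAP and YPEL4 rest on few Sham counts. ERMAP had 151, 53, 3 and 111 counts in SLA Ti and 0, 1, 0 and 18 in Sham. YPEL4 had 49, 29, 1 and 24 counts in SLA Ti and 0, 0, 0 and 4 in Sham, and was not tested in the 8-library fit. Summed over the tested members, the erythroid genes stood at 468, 238, 35.6 and 555 CPM in SLA Ti and 60.9, 37.0, 10.7 and 105 CPM in Sham. In the 8-library fit 7 of 9 members passed, against 3.87% of all genes. Megakaryocyte and platelet genes were less uniform, with a median of 0.52. At an unadjusted p under 0.05, 2 of 6 tested members were higher, against 11.7% of all genes. The 2 were TUBB1, the beta tubulin of platelets (1.74 ± 0.64), and NBEAL2, needed for platelet granules (1.85 ± 0.69).

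**Figure D2:**
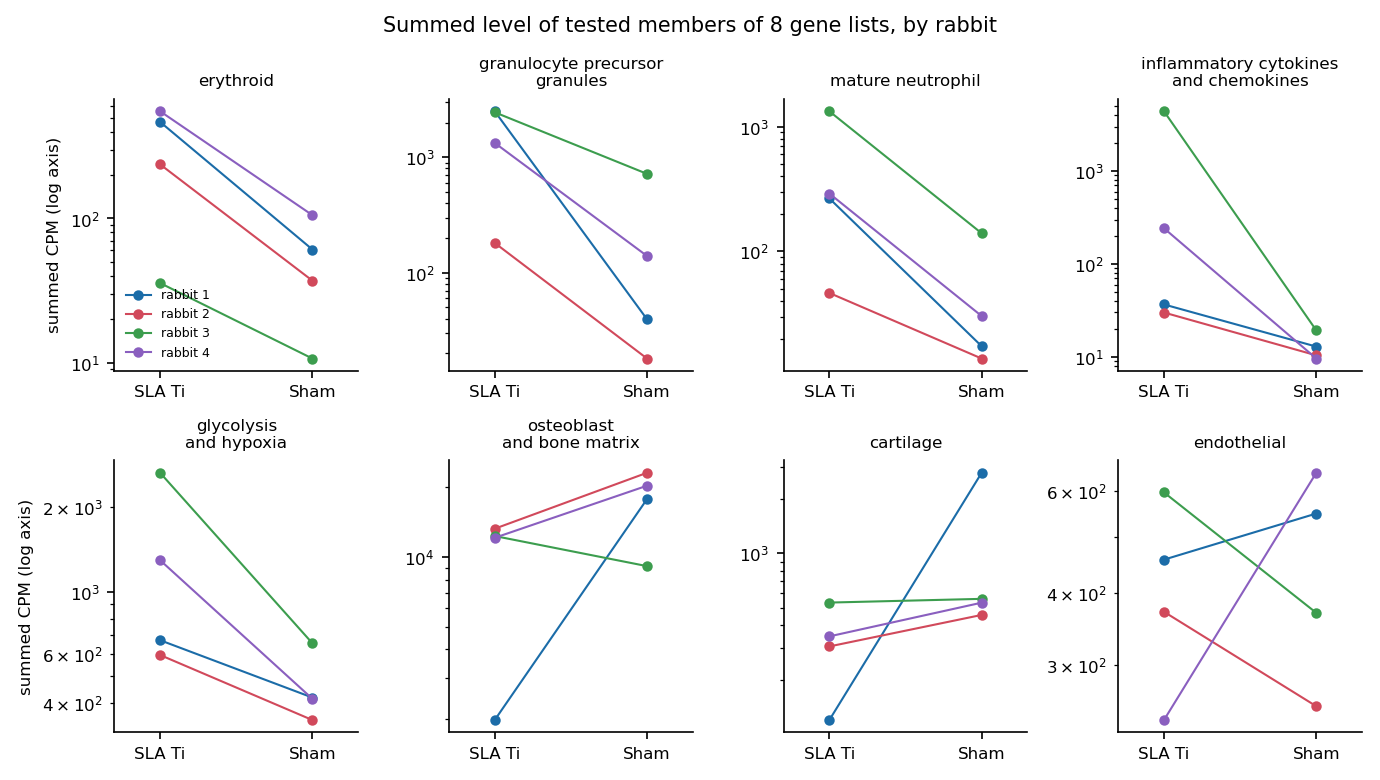
Summed CPM (vertical log axis, scaled separately in each panel) of the tested members of 8 gene lists, SLA Ti on the left and Sham on the right, with a line joining the libraries of 1 rabbit. The erythroid, granule, neutrophil, cytokine and glycolysis lines are all higher on the SLA Ti side, while those of bone, cartilage and endothelium differ in slope, with rabbit 1 steepest for bone and cartilage.

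Granulocyte genes were higher at SLA Ti sites, in a list of granulocyte precursors and in one of mature neutrophils. The first, called the granule list, also holds other genes of these cells, S100A8, S100A9 and MS4A3 among them. Of the granule list 10 of 17 genes were tested, of which 8 were higher at an unadjusted p under 0.05, against 11.7% of all genes. The median log2 fold change was 3.14, and all 10 were higher in 4 of 4 rabbits, against 17% of all genes. Of the mature neutrophil list 10 of 16 were tested, of which 9 were higher at that p, with a median of 3.46. S100A9, which forms the calcium-binding protein calprotectin with S100A8, had 176, 26.2, 524 and 135 CPM in the SLA Ti libraries of rabbits 1 to 4, against 4.35, 1.75, 70.7 and 15.8 CPM in the Sham libraries. S100A8 had 218, 17.96, 636 and 94.4 CPM in SLA Ti, against 2.86, 2.69, 95.2 and 10.2 CPM in Sham. For both genes rabbit 3 was the highest in either group and Sham replicate 3 lay above SLA Ti replicate 2, so that the groups overlapped while every pair pointed the same way. S100A9 rose in the 8-library fit by 3.77 ± 0.47 and S100A8 by 3.65 ± 0.64. BPI, a bactericidal granule protein, differed by 2.97 ± 0.99, and MS4A3, a membrane protein of granulocyte precursors, by 3.56 ± 1.27.

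Receptors that guide neutrophils were higher in every rabbit as well. FPR2, a receptor for bacterial and host formyl peptides, had 7.60, 2.14, 71.6 and 17.4 CPM in SLA Ti, against 0.179, 0.404, 3.55 and 0.442 CPM in Sham, and its relative FPR1 had 16.4, 2.07, 41.8 and 31.1 CPM in SLA Ti, against 1.67, 0.269, 4.29 and 0.804 CPM in Sham. For both receptors Sham replicate 3 lay above SLA Ti replicate 2, so that the groups overlapped. S100A12, another calcium-binding protein of neutrophils, differed by 3.95 ± 0.99 and the receptor CSF3R, which drives granulocyte production, by 3.53 ± 0.99. The 8-library fit called 9 of 9 mature neutrophil genes and 6 of 9 granule genes as higher, against 3.87% of all genes. That fit called 0 genes without rabbit 4 and 0 without the block. Granule genes summed to 2503, 181, 2452 and 1331 CPM in SLA Ti and 39.4, 18.03, 718 and 139 CPM in Sham, and mature neutrophil genes to 266, 46.5, 1328 and 291 CPM in SLA Ti and 17.4, 13.9, 139.7 and 30.4 CPM in Sham. Sham replicate 3 was the highest Sham library for both. Without SLA Ti replicate 3, 8 of 10 mature neutrophil genes were higher at an unadjusted p under 0.05, with a median of 2.60. The granule count was the less steady, at 4, 5, 10 and 5 of 10 without Sham replicate 1, 2, 3 and 4, and 5 without both libraries rich in ribosomal RNA.

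**Figure D3:**
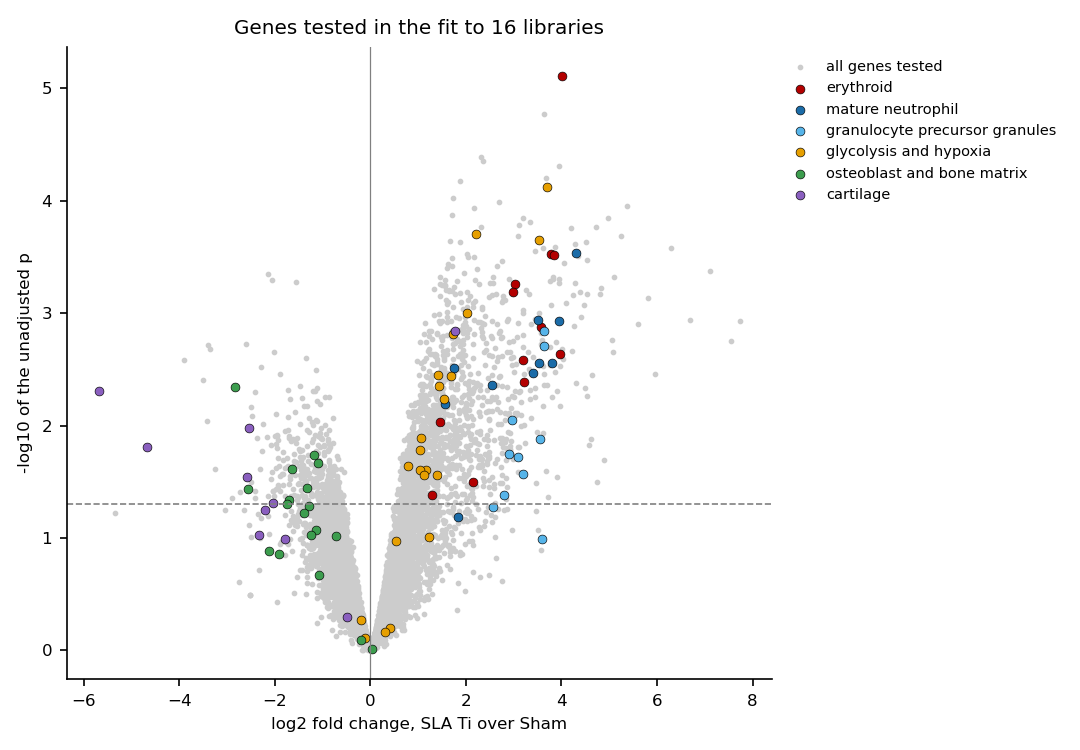
Log2 fold change of SLA Ti over Sham (horizontal axis) against significance as -log10 of the unadjusted value (vertical axis) for each of 11617 genes in the fit to 16 libraries, with the members of 6 lists coloured and a dashed line at the unadjusted threshold of 0.05. Erythroid, granulocyte and glycolysis genes lie to the right, and bone and cartilage genes mostly to the left.

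Macrophage genes were higher in part. Of 18 listed genes 12 were tested, with a median log2 fold change of 0.75. At an unadjusted p under 0.05, 4 of them were higher, against 11.7% of all genes. The 4 were CD14, the co-receptor for bacterial lipopolysaccharide, and the 3 chains of the complement starter C1q. CD14 had 16.1, 28.2, 85.5 and 28.6 CPM in SLA Ti, against 8.70, 10.5, 15.8 and 9.41 CPM in Sham, with no overlap of the groups. CD14 rose by 1.60 ± 0.31 in the 8-library fit (edgeR adjusted p = 0.0343). C1QA, C1QB and C1QC differed by 2.29 ± 0.69, 2.18 ± 0.78 and 1.40 ± 0.55, and each was higher in 4 of 4 rabbits. CD68, a lysosomal protein used as a general macrophage marker, had 10.1, 53.0, 125 and 53.3 CPM in SLA Ti, against 29.8, 43.7, 15.7 and 39.2 CPM in Sham. Rabbit 1 went the other way, and the log2 fold change was 0.75 ± 0.58 (edgeR adjusted p = 0.598). The macrophage genes summed to 133, 479.9, 405 and 307 CPM in SLA Ti and 162, 230.1, 147 and 186 CPM in Sham, with SLA Ti replicate 1 below every Sham library. For comparison, 2 of 7 tested housekeeping genes were higher at an unadjusted p under 0.05, their median log2 fold change of 0.83 was above that of the macrophage genes, and their mean difference of log2(CPM + 1) was 0.31, 0.35, 0.85 and 0.66 in rabbits 1 to 4.

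Of the complement genes 13 of 24 were tested, with a median of 1.40. At an unadjusted p under 0.05, 7 were higher, against 11.7% of all genes. The members of smallest p were the leukocyte receptor chains ITGB2 and ITGAM and the anaphylatoxin receptor C5AR1. The C1q chains are shared with the macrophage list. ITGAM, the alpha chain of complement receptor 3, had 171, 34.8, 125 and 87.2 CPM in SLA Ti, against 11.1, 5.11, 56.7 and 10.5 CPM in Sham, and C5AR1 had 31.1, 9.70, 29.1 and 23.8 CPM in SLA Ti, against 3.69, 4.44, 11.9 and 3.38 CPM in Sham. Sham replicate 3 was the highest Sham library for both and overlapped the lowest SLA Ti library. Of 12 complement genes in the 8-library fit 6 passed as higher, against 3.87% of all genes. Lymphocyte genes were mostly at low level. Of 24 T cell genes 7 were tested and 1 was higher at an unadjusted p under 0.05, near the 11.7% of all genes. That gene was NKG7, a granule protein of cytotoxic cells (2.35 ± 0.98). The T cell genes summed to 5.95, 4.18, 9.46 and 13.0 CPM in SLA Ti and 4.47, 3.77, 7.16 and 6.15 CPM in Sham. Of 22 B cell and plasma cell genes 12 were tested and 1 was higher, again near that share. It was the B cell receptor co-receptor CD22 (0.83 ± 0.35), and the median of the list was -0.22.

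Inflammatory mediators had the highest median of the lists described, 4.42, and here a single library stood far above the rest. Of 26 genes 12 were tested, and 8 were higher and 1 was lower at an unadjusted p under 0.05. The shares of all genes were 11.7% higher and 2.99% lower. CXCL8, a chemokine that draws in neutrophils (chromosome 15, 76368959 to 76371691, minus strand), had 4.64, 3.32, 2329 and 59.0 CPM in the SLA Ti libraries of rabbits 1 to 4, against 0.536, 1.08, 2.94 and 0.402 CPM in the Sham libraries. Each SLA Ti library was above every Sham library, but SLA Ti replicate 3 exceeded the next by far. The log2 fold change was 7.10 ± 1.59 (edgeR adjusted p = 0.0846), and 5.58 ± 1.56 in the 8-library fit (edgeR adjusted p = 0.0991). IL1B, the cytokine interleukin 1 beta (chromosome 2, 97614349 to 97618581, minus strand), had 9.71, 2.14, 936 and 48.2 CPM in SLA Ti, against 0.596, 0.135, 3.80 and 0.724 CPM in Sham. SLA Ti replicate 2 lay below Sham replicate 3, and the other SLA Ti libraries lay above all Sham libraries. IL1B rose by 6.05 ± 0.81 in the 8-library fit (edgeR adjusted p = 0.014). It was the 1 member of 8 that passed there, against 3.87% of all genes higher. PTGS2, the inducible cyclooxygenase of prostaglandin synthesis, had 11.3, 2.57, 395 and 34.9 CPM in SLA Ti, against 0.477, 2.02, 3.12 and 0.603 CPM in Sham. CXCL5, another neutrophil chemokine, had 1.46, 0.296, 127 and 18.4 CPM in SLA Ti, against 0.536, 0.135, 0.857 and 0.482 CPM in Sham. For PTGS2 and CXCL5 SLA Ti replicate 2 lay within the Sham range, while every SLA Ti library exceeded the Sham library of its rabbit in both. Without SLA Ti replicate 3 the log2 fold change was 4.01 for CXCL8 and 3.71 for IL1B.

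The 12 genes summed to 36.6, 29.97, 4405 and 242 CPM in SLA Ti and 12.9, 10.4, 19.2 and 9.57 CPM in Sham. For scale, they summed to 13.0, 25.8, 12.4 and 18.9 CPM in Turned Ti and 5951, 4899, 8096 and 4746 CPM in Turned Cu, so that SLA Ti replicate 3 came near the copper libraries, and the other 3 SLA Ti libraries did not. Without SLA Ti replicate 3, 8 genes were still higher at an unadjusted p under 0.05 and the median was 3.10. IL1A, interleukin 1 alpha, had 0, 0.197, 2.67 and 4.57 CPM in SLA Ti and no count in any Sham library. Against a floor of 3 counts over the Sham group it was at least 40.6-fold higher, and with that bound in place of its fitted value the median of the list was 4.42 as well. The lower member was CXCL10, an interferon-induced chemokine for T cells, named after its values were seen. It had 0.0767, 0.197, 0.0514 and 0 CPM in SLA Ti, against 0.238, 0.404, 0.245 and 0.844 CPM in Sham, all below 1 CPM, and differed by -2.01 ± 0.91. Without SLA Ti replicate 1, 3 or 4 or Sham replicate 2 or 4 it was not below an unadjusted p of 0.05.

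**Figure D4:**
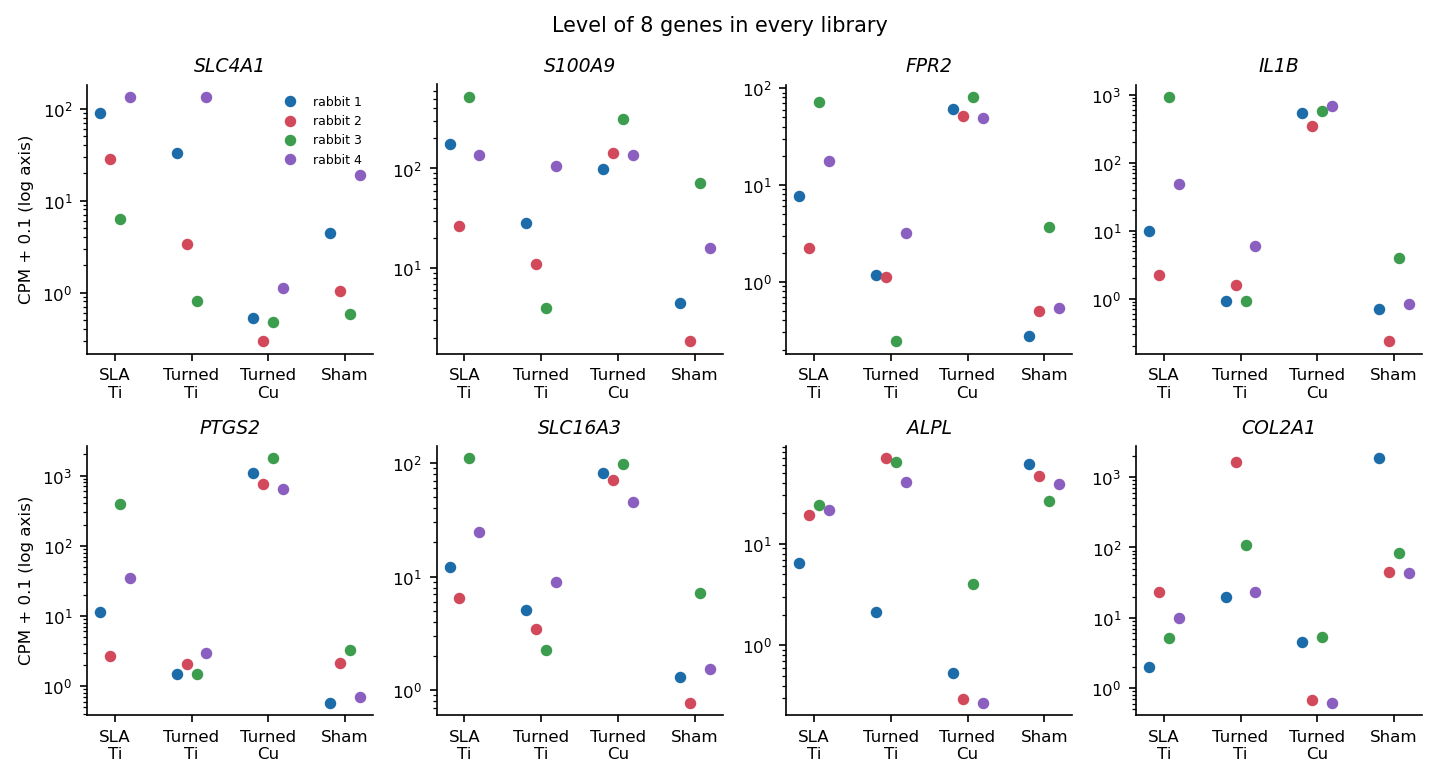
Level in CPM plus 0.1 (vertical log axis, scaled separately in each panel) of 8 genes in every library of the 4 groups (horizontal axis), with 1 colour per rabbit. For IL1B the SLA Ti library of rabbit 3 lies at 936 CPM, above the 4 Turned Cu libraries, and the other SLA Ti libraries lie at 48.2 CPM or below.

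Early response genes, which are switched on within minutes of a stimulus, were higher in part. At an unadjusted p under 0.05, 9 of 18 tested members were higher, against 11.7% of all genes. The median of the list was 1.17, against 0.83 for the housekeeping genes. DUSP1, a phosphatase that turns off MAP kinases, had 135, 30.4, 575 and 85.2 CPM in SLA Ti, against 36.4, 17.2, 48.4 and 12.7 CPM in Sham. SLA Ti replicate 3 was the highest, and SLA Ti replicate 2 lay within the Sham range. IER3, an early response gene of stress, differed by 3.32 ± 0.78, BTG2, an inhibitor of growth, by 2.54 ± 0.67 and KLF6, a zinc finger factor, by 1.17 ± 0.31. DUSP1 and KLF6 passed the 8-library fit, with edgeR adjusted p of 0.0483 and 0.0456. Interferon response genes were divided, with 5 of 18 higher at an unadjusted p under 0.05, against 11.7% of all genes. The median of the list was 0.29 and lay between -0.21 and 1.27 over the alternative analyses. RSAD2, an antiviral enzyme, had 4.57, 2.697, 18.6 and 3.58 CPM in SLA Ti, against 0.715, 0.135, 1.04 and 1.37 CPM in Sham, without overlap, and passed the 8-library fit (edgeR adjusted p = 0.0273). IRF1, a transcription factor of the interferon response, differed by 1.47 ± 0.48, the GTPase GBP1 by 2.34 ± 0.90 and the nucleotide kinase CMPK2 by 1.79 ± 0.71. Of the antigen presentation genes 4 of 14 were higher at that p, against 11.7% of all genes, and 1 without SLA Ti replicate 3. The median of the list was 0.72, below that of the housekeeping genes. TAP1, a subunit of the peptide transporter, had 20.9, 6.58, 148 and 22.9 CPM in SLA Ti, against 5.06, 4.57, 8.33 and 6.79 CPM in Sham (2.59 ± 0.74).

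Glycolysis and hypoxia genes were mostly higher. Of 28 genes 22 were tested, and 16 of them were higher and 0 lower at an unadjusted p under 0.05. The shares of all genes were 11.7% higher and 2.99% lower. The median log2 fold change of the list was 1.20, and 16 members were higher in 4 of 4 rabbits, against 17% of all genes. Housekeeping genes, for comparison, had a median of 0.83 with all libraries in the fit. SLC16A3, the carrier that exports lactate, had 12.1, 6.38, 110.4 and 24.8 CPM in the SLA Ti libraries of rabbits 1 to 4, against 1.19, 0.673, 7.10 and 1.45 CPM in the Sham libraries. Its highest Sham value, in rabbit 3, lay just above its lowest SLA Ti value, in rabbit 2. SLC16A3 differed by 3.71 ± 0.69 (edgeR adjusted p = 0.0846) and rose by 3.74 ± 0.28 in the 8-library fit (edgeR adjusted p = 0.00687). The glucose carrier SLC2A3, abundant on neutrophils and neurons, had 36.9, 12.5, 433 and 56.3 CPM in SLA Ti, against 3.04, 4.71, 18.2 and 5.87 CPM in Sham, and the widely expressed carrier SLC2A1 had 1.61, 3.13, 8.84 and 5.03 CPM in SLA Ti, against 0.834, 0.942, 1.59 and 0.603 CPM in Sham. The SLC2A1 groups did not overlap. PFKFB3, which makes the activator of phosphofructokinase, differed by 2.03 ± 0.50. In the 8-library fit 5 of 21 members passed as higher, against 3.87% of all genes, SLC16A3, SLC2A3, SLC2A1 and PFKFB3 among the 5. The list summed to 670.2, 593, 2655 and 1294 CPM in SLA Ti and 418, 348, 653 and 414 CPM in Sham. At an unadjusted p under 0.05, 10 members were higher without SLA Ti replicate 3, 9 without SLA Ti replicate 4 and 8 without both libraries rich in ribosomal RNA, with medians of 0.77, 1.02 and 1.09. The mature neutrophil and cytokine sums were also highest in SLA Ti replicate 3 and next in SLA Ti replicate 4, and their part in this difference was not tested.

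Cell division genes were higher in part. Of 20 tested, 6 were higher at an unadjusted p under 0.05, against 11.7% of all genes. The median of the list was 0.66, below the 0.83 of the housekeeping genes. RRM2, a subunit of ribonucleotide reductase, had 13.5, 6.32, 8.43 and 8.84 CPM in SLA Ti, against 2.44, 3.09, 4.65 and 2.25 CPM in Sham, with no overlap, and rose by 1.60 ± 0.31 in the 8-library fit. MCM5, a part of the replication helicase, differed by 1.17 ± 0.34, and the mitotic genes AURKA and TPX2 by 1.36 ± 0.45 and 0.91 ± 0.36. The sum was 176, 143, 86.9 and 151 CPM in SLA Ti and 71.7, 98.6, 97.9 and 71.7 CPM in Sham, so that in rabbit 3 the Sham library was the higher. Of the cell death genes 6 of 12 were higher at an unadjusted p under 0.05, against 11.7% of all genes. The median of the list was 1.03, against 0.83 for the housekeeping genes. BCL2L11, a trigger of apoptosis, differed by 1.40 ± 0.47 and BCL2L1, which opposes it, by 1.06 ± 0.37. Without SLA Ti replicate 3 the count was 2 and the median 0.50. Of the oxidative stress genes 2 of 18 were higher, near the 11.7% of all genes, with a median of 0.49. HMOX1, the haem-degrading oxygenase, had 13.9, 16.6, 17.8 and 21.9 CPM in SLA Ti, against 13.1, 3.90, 19.3 and 65.6 CPM in Sham, with 2 rabbits in each direction.

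Bone-forming genes as a list stood lower at SLA Ti sites in 3 of 4 rabbits. Of 20 osteoblast and bone matrix genes 18 were tested, and 0 were higher and 7 lower at an unadjusted p under 0.05, against 2.99% of all genes lower. The median log2 fold change was -1.30, and 0 members passed the 8-library fit. In 4 of 4 rabbits 5 members were lower, against 13% of all genes. ALPL, an enzyme that frees phosphate for mineral (chromosome 13, 131692107 to 131706214, minus strand), had 6.33, 19.1, 24.2 and 21.3 CPM in the SLA Ti libraries of rabbits 1 to 4, against 60.6, 46.4, 26.5 and 38.5 CPM in the Sham libraries. All SLA Ti libraries lay below all Sham libraries, and in rabbit 3 by little. The log2 fold change was -1.70 ± 0.78 (edgeR adjusted p = 0.325). IBSP, bone sialoprotein, had 1.73, 44.4, 128 and 40.3 CPM in SLA Ti, against 131, 426, 199 and 60.3 CPM in Sham. It was lower in 4 of 4 rabbits, most of all in rabbit 1, with groups that overlapped and a log2 fold change of -2.56 ± 1.12 (edgeR adjusted p = 0.296). OMD, a proteoglycan of mineralizing matrix, had 0.691, 4.84, 40.1 and 5.87 CPM in SLA Ti, against 30.4, 51.7, 24.9 and 12.7 CPM in Sham. It had the smallest p of the list (-2.84 ± 0.86, edgeR adjusted p = 0.139), although rabbit 3 went the other way.

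The transcription factors of the lineage lay lower in most rabbits. RUNX2, which starts osteoblast differentiation, had 5.49, 6.05, 5.60 and 5.33 CPM in SLA Ti, against 9.35, 14.3, 6.49 and 7.398 CPM in Sham, with no overlap but a log2 fold change of -0.71 ± 0.40 (edgeR adjusted p = 0.435). SP7, which acts after it, had 0.921, 8.03, 13.1 and 10.2 CPM in SLA Ti, against 22.2, 19.9, 11.0 and 16.6 CPM in Sham (-1.75 ± 0.82). Among the matrix genes, COL1A1, a chain of the main bone collagen, had 702, 4598, 3432 and 6790.4 CPM in SLA Ti, against 6215, 5791, 3099 and 8869 CPM in Sham (-1.08 ± 0.83), and its partner COL1A2 had 975, 6915, 7115 and 4364 CPM in SLA Ti, against 9506, 13543, 4365 and 9942 CPM in Sham (-1.40 ± 0.69). SP7, COL1A1 and COL1A2 were higher in SLA Ti in rabbit 3 and lower in the other 3 rabbits. SPARC, a calcium-binding matrix protein, differed by -1.19 ± 0.45, the cadherin CDH11 of osteoblasts by -1.10 ± 0.43 and the minor fibrillar collagen COL11A1 by -1.65 ± 0.66. BGLAP, osteocalcin, had 0.307, 4.54, 12.0 and 11.5 CPM in SLA Ti, against 24.1, 11.3, 0.306 and 23.9 CPM in Sham, in which Sham replicate 3 was at the level of SLA Ti replicate 1. SPP1, osteopontin, had 13.2, 598, 516 and 273 CPM in SLA Ti, against 339.8, 869, 84.6 and 207 CPM in Sham and a log2 fold change of 0.03 ± 0.92, with 2 rabbits in each direction.

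The list summed to 1979, 13261, 12333 and 12117 CPM in SLA Ti and 17809, 23132, 9142 and 20340.1 CPM in Sham. SLA Ti replicate 1 and Sham replicate 3 were the lowest of their groups. The count moved with several libraries. It was 2 of 18 without SLA Ti replicate 1, 4 without SLA Ti replicate 3, 1 and 3 without Sham replicate 1 and 2, 14 without Sham replicate 3, and 2 without both libraries rich in ribosomal RNA. Without Sham replicate 1 the median was -0.65. Osteocyte genes had a median of -1.68, and 1 of 8 was lower at an unadjusted p under 0.05, against 2.99% of all genes. That gene was PHEX, a regulator of phosphate (-2.90 ± 1.32). DMP1, a matrix protein of osteocytes, had 1.11, 43.7, 130.2 and 34.5 CPM in SLA Ti, against 86.3, 199, 25.2 and 46.1 CPM in Sham (-2.53 ± 1.33). PTPRZ1, a receptor phosphatase, differed by -1.89 ± 1.12. In SLA Ti replicate 1, the lowest for bone genes, adipocyte genes summed to 465 CPM, against 44.0 to 123 CPM in the other 7 libraries, where 5 of 12 listed genes were tested. Granule genes were also highest there. The part of marrow and fat in the bone result was not tested.

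**Figure D5:**
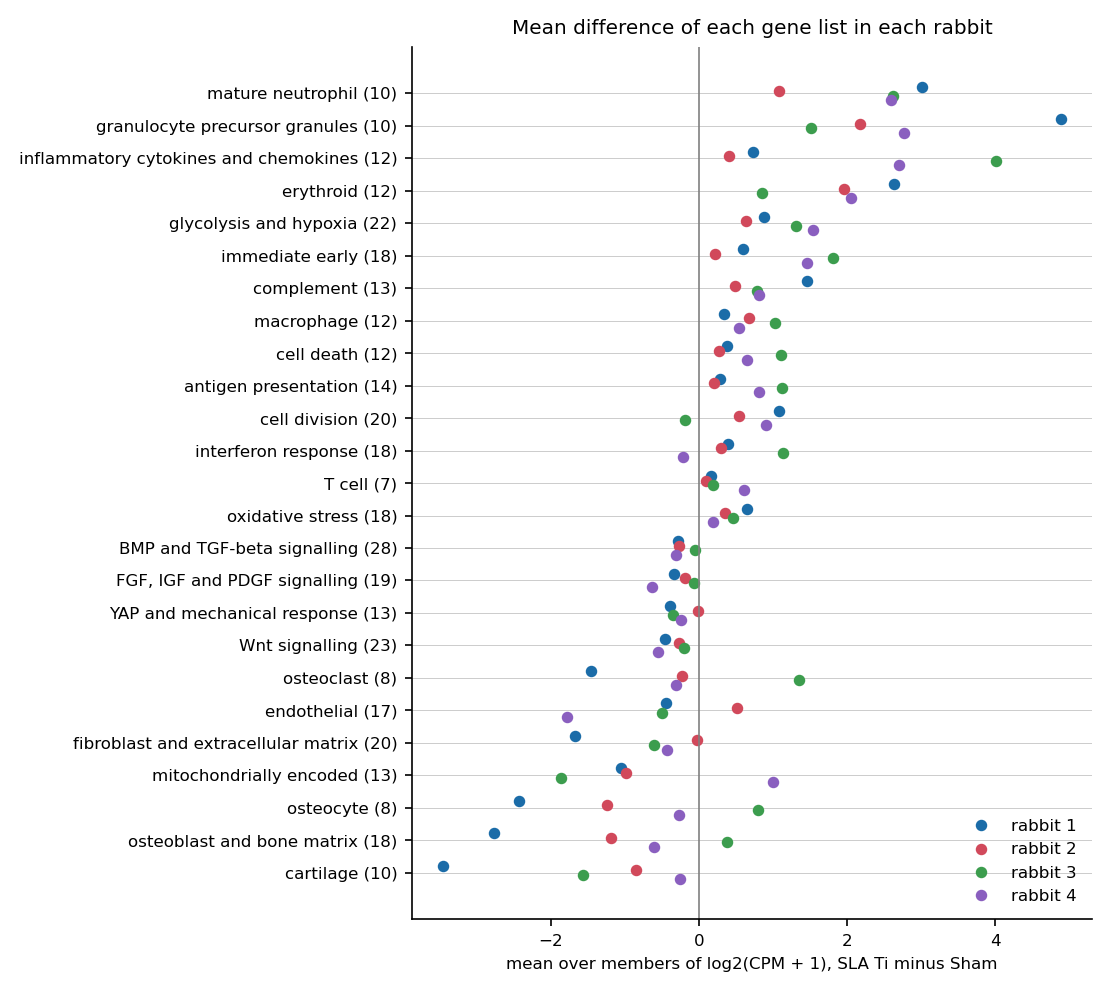
Mean over the tested members of each list (rows, number of members in brackets) of log2(CPM + 1), SLA Ti minus Sham, with 1 point per rabbit (horizontal axis). The granulocyte, erythroid, cytokine and glycolysis points all lie above 0, and those of osteoblast, osteocyte and osteoclast genes lie below 0 in rabbits 1, 2 and 4 and above 0 in rabbit 3.

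By rabbit, the mean difference of log2(CPM + 1) over the osteoblast and bone matrix genes was -2.76, -1.18, 0.38 and -0.61 in rabbits 1 to 4. It was 3.01, 1.08, 2.63 and 2.60 for mature neutrophil genes and 2.63, 1.95, 0.85 and 2.05 for erythroid genes. The mature neutrophil and erythroid means were thus above 0 in 4 of 4 rabbits, and the bone mean was below 0 in 3. Other blood cell lists were not so uniform, with 1.00, 0.90, -0.41 and 0.95 for megakaryocyte and platelet genes and -0.09, -0.27, 0.05 and 0.22 for B cell and plasma cell genes. For osteoclast genes, which serve bone resorption, the means were -1.46, -0.22, 1.35 and -0.31. As for the bone-forming genes, they were below 0 in rabbits 1, 2 and 4 and above 0 in rabbit 3. Of 16 osteoclast genes 8 were tested, with a median of -0.40. At an unadjusted p under 0.05, 0 were lower and 1 was higher, near the 11.7% of all genes. That gene was CA2, carbonic anhydrase 2, which red cells also contain, with 23.1, 15.9, 7.402 and 27.3 CPM in SLA Ti, against 8.46, 8.34, 3.80 and 9.73 CPM in Sham. It was higher in 4 of 4 rabbits and passed the 8-library fit (edgeR adjusted p = 0.0276). CTSK, the collagenase cathepsin K of osteoclasts, had 32.3, 261, 193 and 121 CPM in SLA Ti, against 108, 380.0, 54.3 and 179 CPM in Sham (-0.16 ± 0.67). MMP9, a gelatinase of osteoclasts and neutrophils, had 45.6, 282, 134 and 152 CPM in SLA Ti, against 239.7, 350.0, 30.9 and 323 CPM in Sham (-0.70 ± 0.59).

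Cartilage genes had the lowest median of the lists described, -2.26. Of 15 genes 10 were tested, and 5 were lower and 1 higher at an unadjusted p under 0.05. The shares of all genes were 2.99% lower and 11.7% higher. In 4 of 4 rabbits 6 members were lower, against 13% of all genes. COL2A1, the main collagen of cartilage, had 1.88, 23.4, 5.09 and 9.75 CPM in the SLA Ti libraries of rabbits 1 to 4, against 1863, 44.8, 84.2 and 42.6 CPM in the Sham libraries. The groups did not overlap, and Sham replicate 1 stood far above the rest. The log2 fold change was -4.67 ± 1.71 (edgeR adjusted p = 0.204). COL9A1, a chain of the collagen on the surface of those fibrils, had 0, 0.625, 0.154 and 0.0762 CPM in SLA Ti, against 34.0, 2.42, 3.74 and 0.121 CPM in Sham, and its partner COL9A2 had 4.37, 2.66, 3.70 and 4.65 CPM in SLA Ti, against 56.7, 11.6, 28.0 and 8.89 CPM in Sham. The COL9A1 groups overlapped at Sham replicate 4, and those of COL9A2 did not. COL9A2 fell by 2.43 ± 0.45 in the 8-library fit (edgeR adjusted p = 0.0305), as 1 of 10 members, against 0.226% of all genes. MATN1, a matrilin of cartilage, went the other way, with 73.3, 67.4, 390.4 and 104 CPM in SLA Ti, against 44.0, 37.4, 46.5 and 30.5 CPM in Sham (1.77 ± 0.46, edgeR adjusted p = 0.0974). It weighed on the summed level of the list. In rabbit 3 the sum was 534 CPM in SLA Ti and 559.6 CPM in Sham, of which MATN1 gave 390.4 and 46.5 CPM. Without Sham replicate 1 the number of lower members was 2 and the median -1.27, and without SLA Ti replicate 3 the number was 3.

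MATN4, FRZB, FMOD and TRPV4 were among the 15 named genes of smallest p on the lower side, which were not tested as a group. MATN4, another matrilin, had 2.46, 4.08, 4.16 and 0.762 CPM in SLA Ti, against 17.2, 7.67, 11.9 and 4.38 CPM in Sham. FRZB, a secreted antagonist of Wnt first found in cartilage, had 0.23, 0.559, 0.257 and 0 CPM in SLA Ti, against 6.38, 1.48, 1.65 and 0.523 CPM in Sham. FMOD, the collagen-binding proteoglycan fibromodulin (chromosome 16, 68442915 to 68444276, plus strand), had 3.22, 3.29, 5.86 and 4.42 CPM in SLA Ti, against 30.8, 20.6, 27.9 and 8.00 CPM in Sham. The FMOD and MATN4 groups did not overlap, and the lowest Sham value of each came from rabbit 4. FMOD fell in the 8-library fit by 2.26 ± 0.40 (edgeR adjusted p = 0.0275) and MATN4 by 1.89 ± 0.36 (edgeR adjusted p = 0.0322). TRPV4, a calcium channel that responds to stretch and osmolarity, had 0.153, 0.526, 0.514 and 0.381 CPM in SLA Ti, against 2.80, 1.48, 2.51 and 1.37 CPM in Sham. It too passed the 8-library fit without overlap of the groups.

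DTNA, the dystrobrevin that links the cytoskeleton to the membrane, had the smallest p of the lower genes, with 0.384, 0.625, 0.617 and 0.305 CPM in SLA Ti, against 2.38, 3.36, 1.47 and 1.65 CPM in Sham (-2.15 ± 0.48, edgeR adjusted p = 0.0846). PIK3R3, a regulatory subunit of phosphoinositide 3-kinase, differed by -1.57 ± 0.36 and RAPGEF4, an exchange factor that cAMP activates, by -2.06 ± 0.47. At an adjusted p under 0.1 the fit to 16 libraries held 205 genes (1.76%), 202 higher (1.74%), and DTNA, PIK3R3 and RAPGEF4 as the 3 lower ones (0.0258%). MEF2C, a transcription factor of muscle, bone and cartilage cells, differed by -1.15 ± 0.33, the Hedgehog effector GLI2 by -1.19 ± 0.36 and the guidance receptor ROBO1 by -1.34 ± 0.37. GALNT5, RFTN2 and KLHL29 differed by -1.90 ± 0.55, -1.12 ± 0.34 and -1.73 ± 0.52. UCHL1, a ubiquitin hydrolase, had 1, 0, 0 and 0 counts in SLA Ti and 5, 1, 3 and 4 in Sham, too few for a fold.

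Connective tissue and vessel genes had medians closer to that of all genes. Of 27 fibroblast and extracellular matrix genes 20 were tested, and 1 was lower at an unadjusted p under 0.05, against 2.99% of all genes. That gene was FMOD, and the median of the list was -0.72. COL5A2, a collagen of thin fibrils, differed by -1.02 ± 0.52, COL12A1 by -1.11 ± 0.62 and FAP, a surface protease of activated fibroblasts, by -1.01 ± 0.55. FAP had 1.92, 10.6, 10.8 and 7.54 CPM in SLA Ti, against 14.6, 17.8, 15.2 and 14.0 CPM in Sham, without overlap. Of 17 genes of matrix proteases and their inhibitors 2 were higher at that p, near the 11.7% of all genes, and 2 lower, against 2.99%. The higher ones were PLAUR, the urokinase receptor of myeloid cells (1.61 ± 0.44), and MMP8, the neutrophil collagenase (3.09 ± 1.26), and the lower ones ADAMTS5, an aggrecanase (-0.85 ± 0.39), and ADAM12 (-0.77 ± 0.36). MMP13, the collagenase of osteoblasts and hypertrophic cartilage, had 51.4, 252, 489.7 and 171 CPM in SLA Ti, against 215, 882, 378 and 223 CPM in Sham (-1.06 ± 0.60).

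Of 18 endothelial genes 17 were tested, and 4 were lower and 1 higher at an unadjusted p under 0.05, with a median of -0.75. Of all genes 2.99% were lower and 11.7% higher at that p. CDH5, the cadherin of endothelial junctions, had 25.9, 27.4, 10.6 and 7.16 CPM in SLA Ti, against 52.4, 20.6, 24.7 and 51.1 CPM in Sham, and rabbit 2 went the other way. PLVAP, a protein of vessel pores, had 35.1, 34.5, 14.8 and 13.0 CPM in SLA Ti, against 65.96, 40.5, 54.2 and 98.7 CPM in Sham, with no overlap (-1.45 ± 0.56). The receptor FLT1 differed by -1.32 ± 0.48 and LYVE1, a hyaluronan receptor of lymphatic and sinus endothelium, by -1.53 ± 0.71. The higher gene was PECAM1, which leukocytes and platelets also carry, with 43.6, 46.5, 410.4 and 77.3 CPM in SLA Ti, against 41.4, 32.7, 42.9 and 61.5 CPM in Sham (1.27 ± 0.58). By rabbit the mean difference of the list was -0.44, 0.52, -0.50 and -1.77. Of 10 smooth muscle and pericyte genes tested, 0 were higher and 0 lower.

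Growth signalling lists had medians below 0. Of 33 Wnt pathway genes 23 were tested, with a median of -0.59. At an unadjusted p under 0.05, 4 were lower and 0 higher, against 2.99% and 11.7% of all genes. Besides the antagonist FRZB the lower ones were the enhancer RSPO2 (-1.83 ± 0.66), the nuclear factor LEF1 (-0.86 ± 0.34) and beta-catenin, CTNNB1 (-0.69 ± 0.31). LEF1 had 4.30, 4.18, 4.63 and 5.11 CPM in SLA Ti, against 8.82, 7.27, 9.98 and 6.51 CPM in Sham, and its groups did not overlap. Of 28 BMP and TGF-beta genes tested, 1 was lower, the ligand TGFB3 (-0.85 ± 0.36), near the 2.99% of all genes lower at that p, and the median was -0.47. The ligand TGFB2 (-0.89 ± 0.46), the receptor ACVR1 (-0.93 ± 0.46) and the shared mediator SMAD4 (-0.64 ± 0.35) had log2 fold changes below 0 and did not pass at that p. Of 19 growth factor genes of the FGF, IGF and PDGF families, 4 were lower at that p, against 2.99% of all genes. The 4 were IGF1 (-1.02 ± 0.42), the receptor FGFR2 (-1.48 ± 0.63), FGF7 (-1.15 ± 0.49) and PDGFD (-0.76 ± 0.35). IGF1, a growth factor of bone formation, had 38.5, 21.2, 40.9 and 17.7 CPM in SLA Ti, against 63.7, 90.4, 27.7 and 48.9 CPM in Sham. None of these signalling genes other than FRZB passed the 8-library fit. Of the YAP and mechanical response genes 1 of 13 was higher and 2 were lower, against 11.7% and 2.99% of all genes. The higher one was F3, tissue factor, which starts clotting, with 0.345, 0.559, 47.5 and 2.06 CPM in SLA Ti, against 0.417, 0.135, 0.306 and 0.121 CPM in Sham. SLA Ti replicate 3 was far above all other libraries, and rabbit 1 went the other way.

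Metal-binding genes gave no common direction, with 2 of 12 tested members higher and 1 lower at an unadjusted p under 0.05 and a median of -0.02. The shares of all genes were 11.7% higher and 2.99% lower. MT1A and MT2A, near-identical metallothioneins whose reads are hard to assign, differed by -0.54 ± 0.45 and -0.59 ± 0.91. Of the 13 protein-coding genes of the mitochondrial genome 0 were higher and 0 lower, with a median of -0.82. They summed to 22761, 29816, 26334 and 71687 CPM in SLA Ti and 58668, 46429, 95683 and 44310.1 CPM in Sham, so that rabbit 4 went against the other 3.

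Whether the difference between SLA Ti and Sham itself differed between tibial levels was tested with 2 rabbits each, proximal against distal. By edgeR's quasi-likelihood test 0 genes passed, 290 (2.5%) had an unadjusted p under 0.05, of which 162 (1.39%) had the larger log2 fold change proximally and 128 (1.1%) distally, and the lowest adjusted p was 0.541. The tibial side, which changes within each rabbit, is balanced over the 4 pairs and was not fitted.

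The machined titanium sites show which of these values also set SLA Ti apart from another titanium implant. In every rabbit the Turned Ti site lay at the tibial level opposite to that of the SLA Ti and Sham sites. Values against Turned Ti are therefore not matched for level within a rabbit, unlike those of SLA Ti against Sham. The comparison with Turned Ti shares the SLA Ti libraries with the one against Sham, so its values are not independent of the others. A set of 313 genes (2.69%) had an unadjusted p under 0.05 between Turned Ti and Sham, 226 higher (1.95%) and 87 lower (0.749%) in Turned Ti, and edgeR called 0 (0%). Of 11617 genes 1 (0.00861%) passed edgeR's quasi-likelihood test, a gene without a name (ENSOCUG00000013321, adjusted p = 0.0117), and 958 (8.25%) had an unadjusted p under 0.05, 695 higher (5.98%) and 263 lower (2.26%) in SLA Ti. Higher in SLA Ti than in Turned Ti at that p were 7 of 10 mature neutrophil genes, 9 of 12 cytokine and chemokine genes, 13 of 22 glycolysis and hypoxia genes, 9 of 14 antigen presentation genes and 5 of 7 T cell genes. The median log2 fold changes of SLA Ti over Turned Ti were 2.23, 4.04, 1.01, 1.01 and 1.67. T cell genes were at low level, with sums of 6.50, 2.71, 3.48 and 5.31 CPM in Turned Ti replicates 1 to 4. SLA Ti replicates 1 to 4 had 5.95, 4.18, 9.46 and 13.0 CPM, so the groups overlapped. The T cell median of Turned Ti over Sham was -1.05. Antigen presentation genes summed to 248, 293, 724 and 384 CPM in SLA Ti, highest in replicate 3, against 242, 229, 331 and 241 CPM in Turned Ti. Of the erythroid genes 1 of 12 and of the granule genes 2 of 10 were higher, against 5.98% of all genes, with medians of 1.20 and 1.43. The medians of Turned Ti over Sham were 2.13 for the erythroid, 1.61 for the granule and 1.16 for the mature neutrophil list. For the cytokine, glycolysis and antigen presentation lists they were 0.72, 0.24 and 0.05. Turned Ti replicates 1 to 4 had summed levels of 187, 41.1, 30.05 and 538 CPM for the erythroid list and 392, 82.7, 19.1 and 1845 CPM for the granule list. For the erythroid list 3 Turned Ti libraries, and for the granule list 2, lay within the range of the SLA Ti libraries.

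For single genes, CXCL5 had 0.0323, 0.148, 0.359 and 0.249 CPM in Turned Ti and a log2 fold change of SLA Ti over Turned Ti of 6.50 ± 1.23, and FPR2 had 1.07, 1.03, 0.143 and 3.07 CPM and 3.26 ± 0.90. SLC16A3 had 5.01, 3.35, 2.15 and 8.79 CPM and 2.14 ± 0.67. SLC4A1 had 32.8, 3.30, 0.717 and 134 CPM and 1.73 ± 0.55. ALPL had 2.04, 69.4, 64.4 and 40.7 CPM, so that Turned Ti replicate 1 was below every SLA Ti library, and a value of -1.14 ± 0.75. Of the 18 bone-forming genes 1 was lower in SLA Ti than in Turned Ti at an unadjusted p under 0.05, with a median of -0.81. Of the 10 cartilage genes 2 were lower, with a median of -1.43. The share of all genes lower was 2.26%.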

How the data were processed

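RNA of tissue from 16 tibial sites in 4 rabbits was sequenced as stranded total RNA in read pairs, per the labels' protocols. The deposited gene table holds estimated counts per gene, which are whole numbers, and TPM values, which correct for transcript length, per library, both made by the authors. The submitters' processing notes list STAR 2.7.1a and, with no role stated for either, Cufflinks 2.2.1. No source used here names the genome build or annotation. Log2 fold changes, p-values and q-values of the authors are deposited beside the counts, by a test that no source used here names, and a further deposited table gives their numbers of genes per comparison. The TPM values enter no test, and 16 other columns of per-sample values were not used.

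Library sizes were scaled by TMM, and genes passing edgeR's filter at a minimum count of 10 were kept (11617 of 29587). The test was edgeR 4.0.16's quasi-likelihood F test in R 4.3.3 with a mean per group and the rabbit as a block, on all 16 libraries so that the spread is estimated from all groups, with Benjamini-Hochberg adjustment over all genes tested at 0.05. A standard error is the log2 fold change divided by the square root of F. Alternatives were fits without the block, with the 8 libraries alone, without Turned Cu, with other scaling, filters or robust estimation, DESeq2 1.42.0, limma-voom (limma 3.58.1), and fits leaving out libraries or rabbits. The rabbit pairs the sites by the labels, and deviations from group means correlated at 0.209, 0.306, 0.306 and 0.192 for the SLA Ti and Sham libraries of rabbits 1 to 4, against -0.461 to 0.113 across rabbits. Deviations within a group sum to 0, so values above 0 within rabbits tend to bring those across rabbits below 0. Both sites of a rabbit also share the tibial level, so animal and level cannot be told apart here. No 2 libraries agreed within sampling noise, at a chi-square per degree of freedom of 34.7 or more. The script was tested on simulated data. Symbols come from the deposited table for 14537 genes, 69 more were named from a RefSeq description and 33 from the full gene name in the deposited table. Named genes are the 15 of smallest p in each direction, 19 bone, immune and metal genes, and the 4 of smallest p in each of 49 lists holding 944 genes, of which 608 were tested. The members and lists were chosen with earlier results of these data known. Intervals from counts and floors cover counting error only. Values of some genes are not reported here.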

Additional observations from a re-analysis of the deposited data

Results flagged for a closer look

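For each of 114 genes and 32 lists, the 4 libraries of SLA Ti and the 4 of Sham were searched for 1 library far from the other 3 of its group. Normally distributed values meet the criterion in about 1 of 20 groups by chance. It was applied to CPM without a log, for which that rate need not hold. The criterion was met in 41 of 292 groups, 20 of SLA Ti and 21 of Sham, which is therefore not read as an excess. SLA Ti replicate 3 gave 14 of these and Sham replicate 3 another 14, and genes of 1 list share their libraries.

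SLA Ti replicate 3 was the highest of its group at 40.1 CPM for OMD, 936 CPM for IL1B, 2329 CPM for CXCL8, 410.4 CPM for PECAM1, 390.4 CPM for MATN1, 395 CPM for PTGS2, 127 CPM for CXCL5, 18.6 CPM for RSAD2, 45.0 CPM for GBP1, 159 CPM for BTG2, 433 CPM for SLC2A3 and 2.31 CPM for RSPO2. Its summed level was 4405 CPM for the cytokine and chemokine list, against 242 CPM in the next SLA Ti library, and 270.3 CPM for the interferon response list, against 92.6 CPM in the next. SLA Ti replicate 1 had the only count of UCHL1 in SLA Ti, at 0.0384 CPM, and the highest ADAMTS5, at 7.02 CPM. It was lowest for the bone lists, at 1979 CPM for osteoblast and bone matrix genes and 110.4 CPM for osteocyte genes, where the next SLA Ti libraries had 12117 and 266 CPM, and highest for the adipocyte list, at 465 CPM, where the next had 87.5 CPM. SLA Ti replicate 4 had 71687 CPM on the mitochondrially encoded list, and the next SLA Ti library 29816 CPM.

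Sham replicate 3 was the highest of its group at 7.10 CPM for SLC16A3, 32.3 CPM for CTSE, 0.245 CPM for OLR1, 3.80 CPM for IL1B, 95.2 CPM for S100A8, 3.55 CPM for FPR2, 43.4 CPM for S100A12, 41.8 CPM for CSF3R, 5.94 CPM for C1QA, 56.7 CPM for ITGAM, 11.9 CPM for C5AR1, 8.76 CPM for BTG2 and 31.4 CPM for PFKFB3, and at 139.7 CPM for the mature neutrophil list, where the next Sham library had 30.4 CPM. Sham replicate 1 had 34.0 CPM of COL9A1, 1863 CPM of COL2A1 and 2789 CPM summed over the cartilage list, where the next Sham library had 559.6 CPM. Sham replicate 2 had 1307 CPM of SPARC, 5.79 CPM of PTPRZ1 and 158.9 CPM over the B cell and plasma cell list, and Sham replicate 4 the only counts of YPEL4 in Sham, at 0.161 CPM.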

How the results depend on the processing

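The count of genes past the test turned on the analysis. edgeR's quasi-likelihood test called 0 with the rabbit as a block on 16 libraries, and also 0 with no replicate block, without Turned Cu, with RLE scaling, with a minimum count of 30, without ribosomal RNA and mitochondrial genes and with a robust fit. It called 435 (411 higher, 24 lower) on the 8 SLA Ti and Sham libraries and 742 (660 higher, 82 lower) without a filter on low counts, 725 of which the filter keeps. DESeq2 called 475 (393 higher, 82 lower) and limma-voom 359 (340 higher, 19 lower). Leaving out 1 SLA Ti or Sham library gave 0 to 1 genes, all higher. Leaving out 1 rabbit from every group gave 0, 0, 176 (163 higher, 13 lower) and 1 (1 higher) for rabbits 1 to 4. In the 8-library fit, alternatives chosen after seeing the data gave 127 (125 higher, 2 lower), 209 (200 higher, 9 lower), 518 (447 higher, 71 lower) and 0 without rabbits 1 to 4, and 0 with no replicate block. SLA Ti replicate 4 and Sham replicate 2 left out together gave 0. The causes were not tested. The count by tibial level was 0 in each of 3 fits, and that against Turned Ti 1, 0 with no replicate block, 1 with RLE scaling and 0 without Turned Cu.

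The replicate number names the animal, and in the check of the pairing same-numbered SLA Ti and Sham libraries deviated together. With the replicate block the 8-library fit called 435 genes and without it 0, and the 16-library fit called 0 in both cases. Of 114 genes, each followed through those of 28 alternatives that gave it a value (20 to 28 per gene), 106 kept their direction in every one of these, and 25 of 32 lists kept the sign of their median. The medians of the other 7 lists lay between -0.21 and 1.27 for interferon response, -0.32 and 1.08 for adipocyte, -0.43 and 0.33 for B cell and plasma cell, -0.71 and 0.03 for matrix protease, -0.27 and 0.08 for metallothionein and copper handling, -1.12 and 0.21 for osteoclast and -0.0045 and 0.55 for T cell genes. The 8 genes that did not keep their direction had the following values in the alternatives that turned them. SPP1 was -0.099 with no replicate block, -0.29 in the 8-library fit and -0.10 there without the block, -0.025 with RLE, -0.024 with DESeq2, -0.22 with limma-voom, -0.67 and -0.078 without rabbits 3 and 4, -0.093, -1.38 and -0.74 in the 8-library fit without rabbits 2, 3 and 4, and -0.49 to 0.97 with 1 library left out. CTSK was 0.048 and 0.028 without rabbits 2 and 4, 0.22 in the 8-library fit without rabbit 1, 0.40 without the libraries rich in ribosomal RNA and -0.61 to 0.26 with 1 left out. HMOX1 was 0.063 in the 8-library fit, 0.070, 0.079 and 0.62 there without rabbits 1, 3 and 4, 0.49 without rabbit 4 and -0.82 to 0.68 with 1 left out. MT2A was 0.25 with limma-voom, 0.98 without rabbit 3, 0.52 and 0.96 in the 8-library fit without rabbits 1 and 3 and -1.34 to 0.92 with 1 left out. MT1A was 0.067 without rabbit 1, CD68 -0.049 without rabbit 3, and in the 8-library fit without rabbit 1 MT1A was 0.082, BGLAP 0.20 and MMP9 0.19, and without rabbit 3 CD68 -0.28. The causes were not tested. Depth limits the lowest genes most, since ribosomal RNA leaves Sham replicate 2 with 965804 counts on nuclear protein-coding genes.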

Other observations

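Further lists were also counted. Of all genes tested 11.7% were higher and 2.99% lower at an unadjusted p under 0.05. Of the angiogenesis genes 1 of 12 tested genes were higher and 1 lower at an unadjusted p under 0.05, with a median of -0.24. VEGFA, the main growth factor of vessels, had 25.1, 16.8, 20.7 and 86.6 CPM in SLA Ti, against 11.6, 11.8, 10.3 and 10.6 CPM in Sham, and APLNR, the apelin receptor of sprouting endothelium, had 3.57, 5.56, 2.26 and 0.914 CPM in SLA Ti, against 6.44, 6.05, 6.31 and 11.8 CPM in Sham. The groups overlapped for neither gene, with VEGFA on the higher and APLNR on the lower side. Of the genes that mark inflammatory macrophages 5 of 10 tested genes were higher and 1 lower at an unadjusted p under 0.05, with a median of 0.61, and they summed to 69.2, 44.7, 1717 and 155 CPM in SLA Ti, against 34.6, 32.7, 53.4 and 35.3 CPM in Sham. SLA Ti replicate 3 was far above the other libraries. IDO1, which breaks down tryptophan, had 5.79, 1.81, 309 and 21.0 CPM in SLA Ti, against 0.179, 0.135, 5.94 and 0.603 CPM in Sham and was higher in 4 of 4 rabbits (5.10 ± 1.16, edgeR adjusted p = 0.00687 in the 8-library fit). Among genes of repair macrophages, 2 of 8 tested genes were higher and 1 lower at an unadjusted p under 0.05, with a median of 0.05. They include the interleukin 4 receptor IL4R, with 20.0, 25.4, 116 and 45.4 CPM in SLA Ti, against 13.3, 8.61, 18.1 and 11.1 CPM in Sham, and the arginase ARG1, with 0.269, 2.11, 61.4 and 7.16 CPM in SLA Ti, against 0.536, 0.942, 1.53 and 0.603 CPM in Sham, for which rabbit 1 went the other way. Of the integrated stress response genes 5 of 11 tested genes were higher and 0 lower at an unadjusted p under 0.05. Their median was 1.01, against 0.83 for the housekeeping genes. CEBPB, a transcription factor of myeloid cells and stress, had 3.57, 2.73, 18.6 and 4.88 CPM in SLA Ti, against 1.97, 1.21, 1.59 and 1.25 CPM in Sham, without overlap.

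Of the integrin and focal adhesion genes 3 of 26 tested genes were higher and 3 lower at an unadjusted p under 0.05, with a median of -0.45, and the higher share is near that of all genes. The higher ones were ZYX (1.70 ± 0.45, edgeR adjusted p = 0.0119 in the 8-library fit), PXN (1.15 ± 0.39) and TLN1 (0.85 ± 0.35), which link integrins to actin, and the lower ones the collagen receptor chains ITGA10 (-1.79 ± 0.62) and ITGA2 (-1.58 ± 0.65) and ITGA8 (-1.63 ± 0.64). Of the Notch and Hedgehog genes 1 of 14 tested genes were higher and 2 lower at an unadjusted p under 0.05, with a median of -0.65. HDC, which makes histamine in mast cells and granulocyte precursors, had 3.80, 0.855, 1.34 and 1.295 CPM in SLA Ti, against 0.536, 0, 0.49 and 0.0804 CPM in Sham, without overlap (2.61 ± 0.70, edgeR adjusted p = 0.0331 in the 8-library fit), while 3 of 9 mast cell genes were tested. Of the lysosome genes 3 of 19 tested genes were higher and 0 lower at an unadjusted p under 0.05, with a median of 0.36. No gene of the cytosolic ribosome (16 tested) or of the nuclear-encoded respiratory chain (21 tested) passed at that p in edgeR's 16-library fit, with medians of -0.46 and -0.18.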
